A study of Mus musculus with 9 samples.

Results

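Of 157497 regions counted by ATAC-seq in mouse embryonic stem cells, 9112 (5.79%) overlapped by at least 1 bp an interval of the peak list deposited for NanogKO:Esrrb:Nanog and no interval of the lists deposited for NanogKO or NanogKO:Esrrb. ATAC-seq reads out open chromatin through a transposase that inserts adapters where DNA is accessible. These 9112 regions on chromosomes 1 to 19 and X are described here across all 9 libraries. They were chosen by peak calls made on the same libraries, so their levels and fold changes are given as a description, with no test.

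All 3 groups carried a Nanog knockout and had 3 libraries each. NanogKO had no added factor by its labels, NanogKO:Esrrb had Esrrb, and NanogKO:Esrrb:Nanog had Esrrb and Nanog. The sources used here do not say how each factor was added. The cell line name is N{delta} for NanogKO and N{delta}:cE:iN for both other groups, and the sample titles add the codes 44C6 for NanogKO, 44J for NanogKO:Esrrb and 44JN for NanogKO:Esrrb:Nanog. Every difference from NanogKO is therefore also a difference between named lines, and the groups with Esrrb differ in title code as well, so line and added factor cannot be told apart. The cells grew in 10% serum with 1000 U/ml of leukaemia inhibitory factor (LIF) and received no other treatment. Before transposition they were sorted as PECAM+ and PDGFRA-. Accessibility does not measure the proteins that mark an embryonic stem cell, and no expression was analysed here.

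NANOG is a homeodomain transcription factor and ESRRB an orphan nuclear receptor. Both bind enhancers of the naive pluripotency network, together with OCT4, SOX2, KLF factors and STAT3, the effector of LIF. Esrrb is itself a known target of NANOG and can sustain self-renewal in its absence. Enhancers bound by such factors are usually seen as short accessible stretches away from gene starts.

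The peak names in the list limit what its intervals show. The third list, deposited for NanogKO:Esrrb:Nanog, holds 138118 intervals cut from 114798 named peaks, and every name carries the code S8. That code belongs in the sample titles to NanogKO:Esrrb replicate 3. Of the 114798 names, 102788 (89.5%) also occur in the NanogKO:Esrrb list, where they make up 80.8% of its 127136 names, and all 102788 have the same score in both. No list carries a peak name of a NanogKO:Esrrb:Nanog library. Every region described here therefore lies in a peak named for NanogKO:Esrrb replicate 3, and a region with a peak in NanogKO:Esrrb:Nanog alone would not be among them. For 840 of the 9112 regions (9.22%) another piece of the same named peak stands in the NanogKO:Esrrb list. The name "third-list-only regions" is used below for this reason, in place of regions open only with Esrrb and Nanog.

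Total counts ran from 35545030 to 58520948 per library over all regions. The TMM factors, which correct library totals for composition, lay between 0.9192 and 1.0415. Per third-list-only region the median count was 31 to 74, so counting error alone is sizeable for single regions in single libraries. No library of a group was a copy of another.

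The third-list-only regions were short pieces. Their median length was 105 bp (quartiles 80 and 133, range 1 to 436), against 345 bp over all regions and 511 bp over the 87127 regions in all 3 lists. Each was exactly 1 interval, and 703 were under 50 bp. The deposited score of the peaks ranged from 14 with a median of 84, where the lowest score in the list was 13. Among the members with the lowest score, a region 7663 bp from Zbtb33 had a score of 14, a region in Adam23 a score of 15 and one in Nupl2 a score of 16. In the region at Zbtb33 the CPM (counts scaled to library size, TMM-adjusted) was 1.2, 1.36 and 1.05 in NanogKO, 1.31, 1.12 and 1.27 in NanogKO:Esrrb, with 2.07, 1.88 and 1.45 in NanogKO:Esrrb:Nanog. Just outside the rule were regions of the third list that also held a weak peak of 1 other list, such as regions near Gm36722, near Ndfip1 and in Wdr4 with scores of 13, 14 and 15 there. The region near Gm36722 had 0.537, 0.423 and 0.405 CPM in NanogKO, 0.954, 1.14 and 0.696 in NanogKO:Esrrb, with 0.809, 1.44 and 0.916 in NanogKO:Esrrb:Nanog. In that outside region the last 2 groups overlapped, as they did in the region in Wdr4.

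Sequence could be read for regions that lie within the 250 bases before a RefSeq gene start. Of the 9112 regions, 171 overlapped a promoter window (250 bases before to 50 after a start, 184 windows) and 48 lay wholly in the 250 bases before one. The sequences shown are those of the 48 that held a nuclear receptor, KLF or octamer motif, the motifs of ESRRB, of KLF factors and of OCT4. They were chosen after the files had been seen. Each is printed 5′ to 3′ on the gene's strand from RefSeq, build GRCm38.p6 (mm10), with the matches to any of 12 motifs in capitals.
Gm52187, chr15:78629299-78629417, minus strand: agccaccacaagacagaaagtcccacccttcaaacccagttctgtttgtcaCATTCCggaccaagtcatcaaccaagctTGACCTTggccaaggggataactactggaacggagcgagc
Ckmt1, chr2:121357570-121357699, plus strand: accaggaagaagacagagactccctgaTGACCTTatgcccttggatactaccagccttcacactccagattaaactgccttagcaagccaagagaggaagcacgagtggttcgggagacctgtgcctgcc
Spin1, chr13:51101399-51101543, plus strand: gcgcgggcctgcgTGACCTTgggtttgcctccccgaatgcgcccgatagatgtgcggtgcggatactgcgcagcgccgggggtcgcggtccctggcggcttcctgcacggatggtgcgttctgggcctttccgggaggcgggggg
Fhl1, chrX:56786368-56786476, plus strand: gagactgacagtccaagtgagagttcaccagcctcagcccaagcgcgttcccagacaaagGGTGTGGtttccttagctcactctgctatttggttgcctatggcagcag
1700007J10Rik, chr11:59740169-59740297, minus strand: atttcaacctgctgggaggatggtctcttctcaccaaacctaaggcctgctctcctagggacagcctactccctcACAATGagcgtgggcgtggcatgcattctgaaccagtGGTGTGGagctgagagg
Zbtb12, chr17:34894319-34894447, plus strand: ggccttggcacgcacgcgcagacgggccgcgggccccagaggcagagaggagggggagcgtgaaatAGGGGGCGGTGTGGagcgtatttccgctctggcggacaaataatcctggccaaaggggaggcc
Gm11716, chr11:107335839-107335914, plus strand: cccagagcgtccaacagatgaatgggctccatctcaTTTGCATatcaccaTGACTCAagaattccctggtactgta

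The first 3 of these carry TGACCTT, the reverse complement of the nuclear receptor motif AAGGTCA. At Ckmt1, which encodes a mitochondrial creatine kinase, the CPM was 0.78, 0.551 and 0.993 in NanogKO, 2.64, 3.45 and 2.4 in NanogKO:Esrrb, with 6.39, 6.6 and 6.24 in NanogKO:Esrrb:Nanog. The 3 groups of libraries did not overlap there, with a log2 fold change of 3.05 ± 0.22 (SE) from NanogKO to NanogKO:Esrrb:Nanog and of 1.88 ± 0.22 from NanogKO to NanogKO:Esrrb. The region before Gm52187 had 0.146, 0.0367 and 0.223 CPM in NanogKO, 0.775, 0.837 and 0.8 in NanogKO:Esrrb, with 1.31, 1.32 and 1.35 in NanogKO:Esrrb:Nanog, also without overlap. At Spin1, a reader of histone methylation, NanogKO:Esrrb stood at 2.88, 1.78 and 2.59 CPM beside 2.71, 2.72 and 2.25 in NanogKO, while NanogKO:Esrrb:Nanog had 4.83, 5.46 and 2.96. The motif therefore stands in regions with a step between the first 2 groups and in a region without one. Before Fhl1, a LIM-domain protein gene whose region holds the KLF motif GGTGTGG, the CPM was 0.805, 0.919 and 0.831 in NanogKO, 1.05, 1.44 and 1.25 in NanogKO:Esrrb, with 2.34, 2.55 and 1.47 in NanogKO:Esrrb:Nanog.

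Motif counts in the promoter windows give the background for these matches. Both strands were searched, and motifs may overlap each other. AAGGTCA occurred in 12 of the 184 windows with a third-list-only region (6.52%), in 3.31% of the 17129 windows with any counted region and in 4.72% of all 32585 windows. GGTGTGG occurred in 26 of the 184 (14.1%), against 7.7% and 7.57%. The octamer ATGCAAA occurred in 5 (2.72%), against 3.53% and 4.66%, and the SOX motif CATTGT in 20 (10.9%), against 7.32% and 12.2%. The NANOG motif TAATGG was found in 13 (7.07%), against 4.73% and 7.68%, and the STAT motif TTCCNGGAA in none, against 1.19% and 1.16%. Other motifs searched were TCF in 9 (4.89%, against 2.54% and 3.76%) and GATA in 17 (9.24%, against 6.07% and 11.2%). TEAD was in 32 (17.4%, against 12.5% and 14.6%) and CTCF in 32 (17.4%, against 16.3% and 10.7%). AP-1 was in 11 (5.98%, against 5.01% and 7.85%) and FOX in 6 (3.26%, against 2.5% and 3.67%). The median GC content was 59.7% in the windows with a third-list-only region, 60.7% in those with any region and 53.0% in all. A match is only a run of letters in the window, and it need not lie within the region itself.

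Across the 9112 regions the level was lowest in NanogKO, between in NanogKO:Esrrb and highest in NanogKO:Esrrb:Nanog. The median CPM per region was 0.756, 0.827 and 0.872 in the NanogKO libraries, 0.974, 1.06 and 1.08 in NanogKO:Esrrb, with 1.29, 1.44 and 1.28 in NanogKO:Esrrb:Nanog. The groups did not overlap, while the median over all regions stayed between 2.74 and 2.96 in every library. The regions took 1.02% ± 0.069 (SD, n = 3) of all counts in NanogKO, 1.20% ± 0.049 in NanogKO:Esrrb, with 1.53% ± 0.12 in NanogKO:Esrrb:Nanog. Per kilobase of region their median level in NanogKO was 8.13 to 9.12 CPM, beside 8.84 to 9.16 for all regions and 12.2 to 12.6 for regions in all 3 lists. Longer regions without a NanogKO interval had less there. The level was 3.28 to 3.83 in the NanogKO:Esrrb list only (median length 201 bp). It was 3.89 to 4.58 in that list and the third (257 bp). In NanogKO:Esrrb:Nanog the same level per kilobase was 13.1 to 14.5 for the third-list-only regions and 12.9 for regions in all 3 lists. The sources used here do not say how a read that crosses an edge was counted, and this weighs most on short regions. Counting such reads would raise the level per kilobase most in the third-list-only regions. Levels per kilobase of classes of unlike length therefore do not settle how open these regions were in NanogKO. The plot of levels by library shows the 3 steps and the wide spread between regions.

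**Figure D1:**
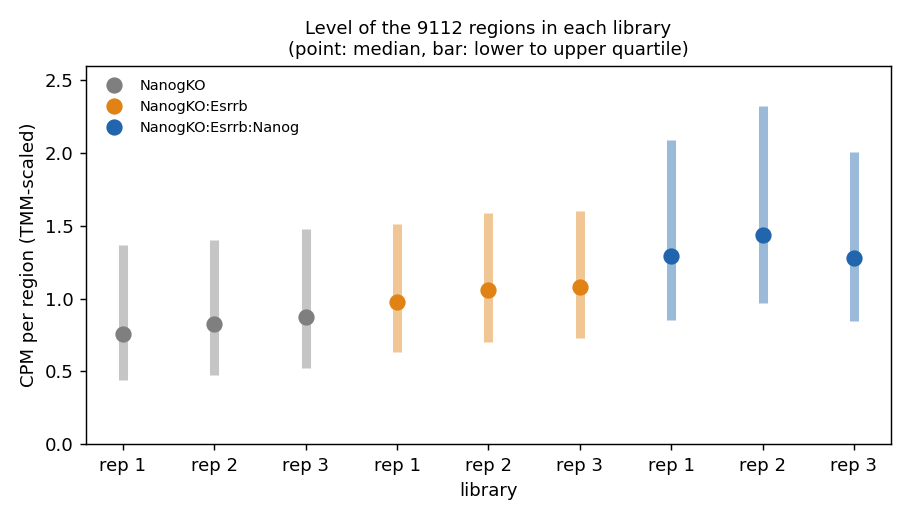
Level of the 9112 third-list-only regions in each of the 9 libraries, in TMM-scaled CPM per region, with the median as a point and the lower to upper quartile as a bar. The medians are 0.756 to 0.872 in NanogKO, 0.974 to 1.08 in NanogKO:Esrrb, with 1.28 to 1.44 in NanogKO:Esrrb:Nanog, and the quartile bars of all 3 groups overlap.

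Fold changes of single regions were spread around these steps. From NanogKO to NanogKO:Esrrb:Nanog the median log2 fold change was 0.65 (quartiles 0.21 and 1.23), from NanogKO:Esrrb to NanogKO:Esrrb:Nanog 0.38 (0.13 and 0.67), and from NanogKO to NanogKO:Esrrb 0.26 (-0.09 and 0.71). Over all tested regions each of these medians was -0.01. In edgeR's quasi-likelihood fit 4549 of the 9112 regions (49.9%) were called higher and 146 (1.6%) lower in NanogKO:Esrrb:Nanog than in NanogKO at an adjusted p under 0.05, where 24.9% and 24.4% of all 157439 tested regions were called. Against NanogKO:Esrrb the counts were 2141 higher (23.5%) and 17 lower (0.187%), with 12.6% and 12.0% over all regions. From NanogKO to NanogKO:Esrrb 2224 (24.4%) were called higher and 248 (2.72%) lower, with 20.0% and 17.0% over all regions. The rule itself used these libraries, so the direction of the counts is not a finding. The count of 2141 was 1269 without NanogKO:Esrrb replicate 1 and 1307 without NanogKO:Esrrb:Nanog replicate 2. The 3 comparisons share libraries pairwise and are not independent. Fold changes over 2-fold were met by 3029 of the 4549, by 791 of the 2141 and by 1328 of the 2224.

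**Figure D2:**
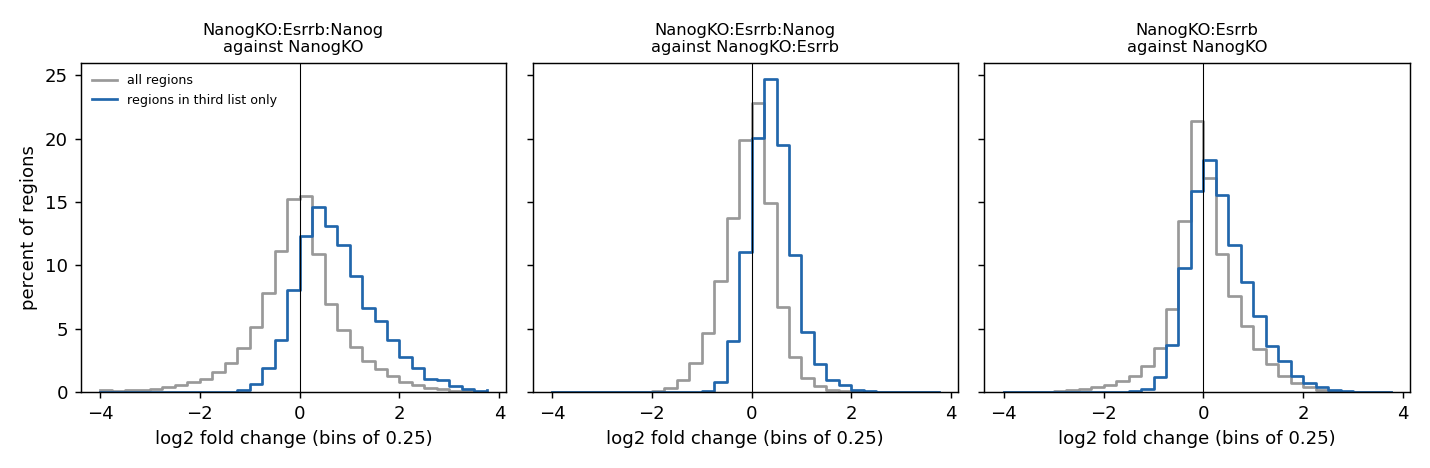
Distribution of log2 fold changes (x axis, bins of 0.25) as a percentage of regions (y axis) for the third-list-only regions in blue and all tested regions in grey, in 3 comparisons. The blue medians are 0.65, 0.38 and 0.26 and the grey medians -0.01, and the widest blue distribution is that of NanogKO:Esrrb:Nanog against NanogKO.

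The order of the 3 group means differed between regions. The mean CPM went up in both steps, from NanogKO to NanogKO:Esrrb and on to NanogKO:Esrrb:Nanog, in 5248 regions (57.6%), an order found in 24.0% of all regions. In 1698 (18.6%, against 11.8% of all regions) NanogKO:Esrrb had the lowest mean and NanogKO:Esrrb:Nanog the highest. In 825 (9.05%, against 13.7%) NanogKO:Esrrb had the highest mean and in another 217 (2.38%, against 11.4%) it did so with NanogKO:Esrrb:Nanog the lowest. NanogKO had the highest mean in 748 (8.21%, against 13.3%) and 376 (4.13%, against 25.9%), the latter with NanogKO:Esrrb:Nanog the lowest. All 3 NanogKO:Esrrb:Nanog libraries stood above all 6 others in 2718 regions (29.8%), against 12.0% of all regions, and below all 6 in 40 (0.439%), against 11.6%. NanogKO:Esrrb replicate 3, the library whose code names the peaks, was above the lowest NanogKO:Esrrb:Nanog library in 4170 regions (45.8%), against 67.7% of all regions.

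Regions with the largest difference between NanogKO:Esrrb:Nanog and the mean of the other 2 groups lay by genes of many kinds. The region of largest difference, chr18:46914645-46914822, lies 6990 bp from Arl14epl. Its CPM was 0.293, 0.386 and 0.385 in NanogKO, 0.318, 0.469 and 0.731 in NanogKO:Esrrb, with 5.16, 3.81 and 5.83 in NanogKO:Esrrb:Nanog. Only the last group stood apart there, with log2 fold changes of 3.78 ± 0.28 over NanogKO and 3.28 ± 0.26 over NanogKO:Esrrb. A region of the same form lies in Htr3b, a serotonin receptor subunit gene, at chr9:48961426-48961576. It had 0.707, 0.753 and 0.345 CPM in NanogKO, 0.636, 0.888 and 0.992 in NanogKO:Esrrb, with 4.02, 4.99 and 4.55 in NanogKO:Esrrb:Nanog. The first 2 groups overlapped in both regions.

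The other 10 regions of this kind had a step from NanogKO to NanogKO:Esrrb and a further one to NanogKO:Esrrb:Nanog. In Atp8a2, which encodes a phospholipid flippase, the region chr14:59793895-59794114 had 0.0732, 0.367 and 0.0811 CPM in NanogKO, 0.676, 0.586 and 1.01 in NanogKO:Esrrb, with 2.94, 3.11 and 3.08 in NanogKO:Esrrb:Nanog. The region 11969 bp from Gsc, the goosecoid homeobox gene of the gastrula organiser, had 0.244, 0.202 and 0.223, then 1.13, 0.569 and 0.974, then 3.3, 4.75 and 1.76 CPM in the same order. Its NanogKO:Esrrb:Nanog libraries were the most spread of the 12 regions in the plot of top regions. The region 15765 bp from Lama1, a laminin chain of the basement membrane that primitive endoderm lays down, had 0.0732, 0.312 and 0.182, then 0.954, 1.56 and 0.835, then 3.09, 3.81 and 2.99 CPM. In Mras, which encodes a RAS-related GTPase, the values were 0.244, 0.588 and 0.446, then 0.874, 2.23 and 1.04, then 5.0, 5.4 and 5.22 CPM. The remaining 6 of the 12 lay in Rgs22 and Crtac1 and nearest to Cryba4, A530021J07Rik, Adk and Pabpc6. Across all 12 the log2 fold change over NanogKO:Esrrb ran from 1.47 ± 0.24 (Cryba4) to 3.28 ± 0.26 (Arl14epl).

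**Figure D3:**
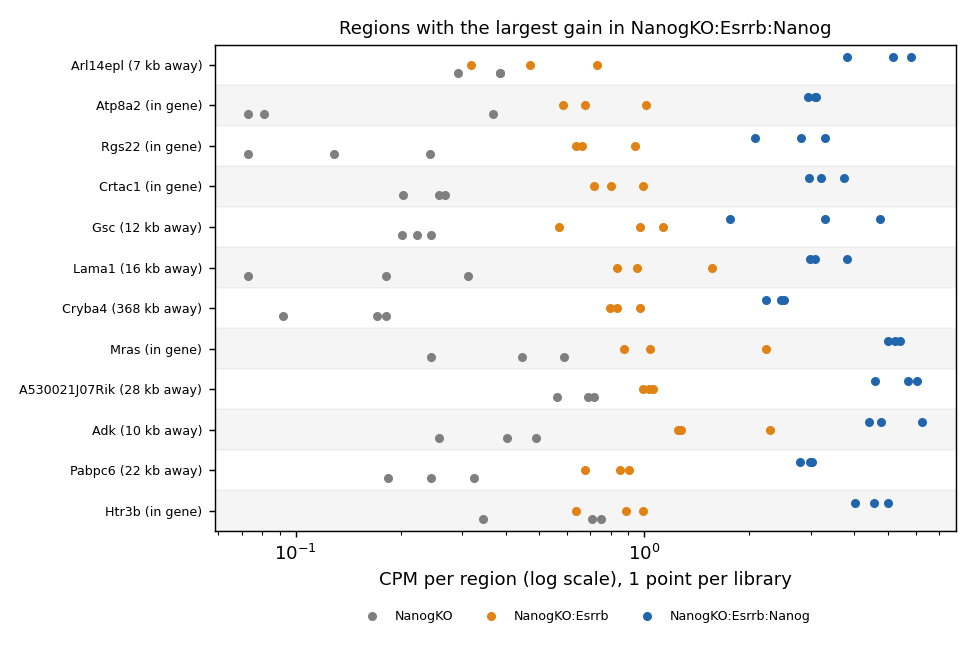
CPM per region on a log axis, 1 point per library, for the 12 third-list-only regions with the largest log2 fold change of NanogKO:Esrrb:Nanog over the mean of the other groups, labelled by nearest gene and distance. All blue points lie to the right of the orange and grey points, and at Arl14epl and Htr3b orange and grey points overlap.

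By pluripotency genes the third-list-only regions differed in where their level stepped: between the Esrrb groups, from NanogKO to NanogKO:Esrrb, or at both. The naive pluripotency list had 35 of these regions in or within 50 kb of 16 of its 24 genes, which is 6.27% of the 558 regions there and close to the 5.79% over all regions. Of the 35, 25 (71.4%) were called higher and none lower in NanogKO:Esrrb:Nanog than in NanogKO, beside 49.9% and 1.6% of all third-list-only regions, and the median log2 fold change was 1.13. Against NanogKO:Esrrb 16 (45.7%) were called higher and none lower, with a median of 0.53, beside 23.5% of all third-list-only regions. From NanogKO to NanogKO:Esrrb 18 (51.4%) were called higher and 1 lower, with a median of 0.56, beside 24.4% and 2.72%. The background over all tested regions is that given above, and nothing particular to the list is read from these counts. All 3 NanogKO:Esrrb:Nanog libraries stood above all others in 20 of the 35.

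Esrrb itself held 2 of the regions, both within the gene. At chr12:86463234-86463387, 41590 bp from the start of Esrrb, the CPM was 1.07, 1.08 and 1.68 in NanogKO, 1.75, 2.5 and 1.95 in NanogKO:Esrrb, with 7.26, 7.6 and 6.92 in NanogKO:Esrrb:Nanog. At chr12:86497361-86497471, 75717 bp from the start, it was 1.12, 1.36 and 1.64, then 2.09, 2.21 and 2.64, then 5.47, 5.22 and 6.52 CPM. In both regions the groups did not overlap. The larger step lay between the Esrrb groups, at 1.81 ± 0.19 and 1.31 ± 0.18 on the log2 scale. From NanogKO to NanogKO:Esrrb it was 0.69 ± 0.21 and 0.75 ± 0.20. None of the regions lay in or within 10 kb of Nanog. The nearest, chr6:122734583-122734661 at 19950 bp, had 0.537, 0.79 and 0.628, then 0.874, 1.0 and 0.87, then 1.39, 1.26 and 1.09 CPM.

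Tfcp2l1, a transcription factor gene downstream of LIF, held the naive-list region with the largest difference from NanogKO. At chr1:118674341-118674434 the CPM was 0.122, 0.0919 and 0.284 in NanogKO, 0.775, 0.904 and 0.713 in NanogKO:Esrrb, with 1.24, 1.35 and 1.63 in NanogKO:Esrrb:Nanog. Here the larger step lay from NanogKO to NanogKO:Esrrb, at 2.25 ± 0.37 on the log2 scale, and that between the Esrrb groups was 0.82 ± 0.28. A region 25085 bp from Prdm14, a PR-domain regulator of naive cells and germ cells, had 0.268, 0.423 and 0.608, then 2.44, 2.5 and 1.98, then 1.95, 2.88 and 2.21 CPM. Its last 2 groups overlapped, with a log2 fold change of 0.01 ± 0.23 between them. The region 10108 bp from Klf5 had 0.756, 0.937 and 0.933, then 2.46, 3.06 and 2.51, then 3.34, 4.25 and 3.44 CPM. Klf2, Klf4 and Klf5 encode Krüppel-like factors that share targets in naive cells.

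Close to Klf4 lay a pair of the regions. At chr4:55532919-55533055, 444 bp from the gene, the CPM was 2.68, 2.57 and 2.37 in NanogKO, 4.65, 3.94 and 3.78 in NanogKO:Esrrb, with 9.39, 10.9 and 5.05 in NanogKO:Esrrb:Nanog. At chr4:55532726-55532774 it was 2.0, 1.67 and 1.78, then 1.97, 1.32 and 1.57, then 3.94, 3.23 and 1.83. The third NanogKO:Esrrb:Nanog library was the lowest of its group in both, and in the second it fell among the other groups. Stat3, whose product carries the LIF signal, also had its lowest NanogKO:Esrrb:Nanog value in replicate 3, at chr11:100938750-100938941, with 2.46, 2.37 and 2.9, then 4.15, 4.12 and 3.62, then 7.67, 8.54 and 4.51 CPM.

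A pair of regions lay 47063 bp and 27611 bp from Klf2. The farther one, chr8:72271835-72271999, had 2.37, 2.02 and 2.31, then 3.82, 4.89 and 3.38, then 8.4, 9.21 and 6.69 CPM. Jam2, an adhesion molecule gene, had 3 regions, and the strongest, 1353 bp away, had 5.44, 6.14 and 6.18, then 6.44, 7.74 and 6.18, then 12.2, 11.9 and 8.99 CPM. Only the NanogKO:Esrrb:Nanog libraries stood apart in that region. In the other two Jam2 regions none of the 3 groups overlapped, with NanogKO lowest in chr16:84786592-84786717 and NanogKO:Esrrb lowest in chr16:84737502-84737627. Pecam1, the gene of the sort marker PECAM, had 6 regions with log2 fold changes over NanogKO from -0.13 to 1.78, and Pdgfra, the gene of the other sort marker, had 4 from 0.47 to 1.43. Every cell was sorted on these 2 proteins.

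**Figure D4:**
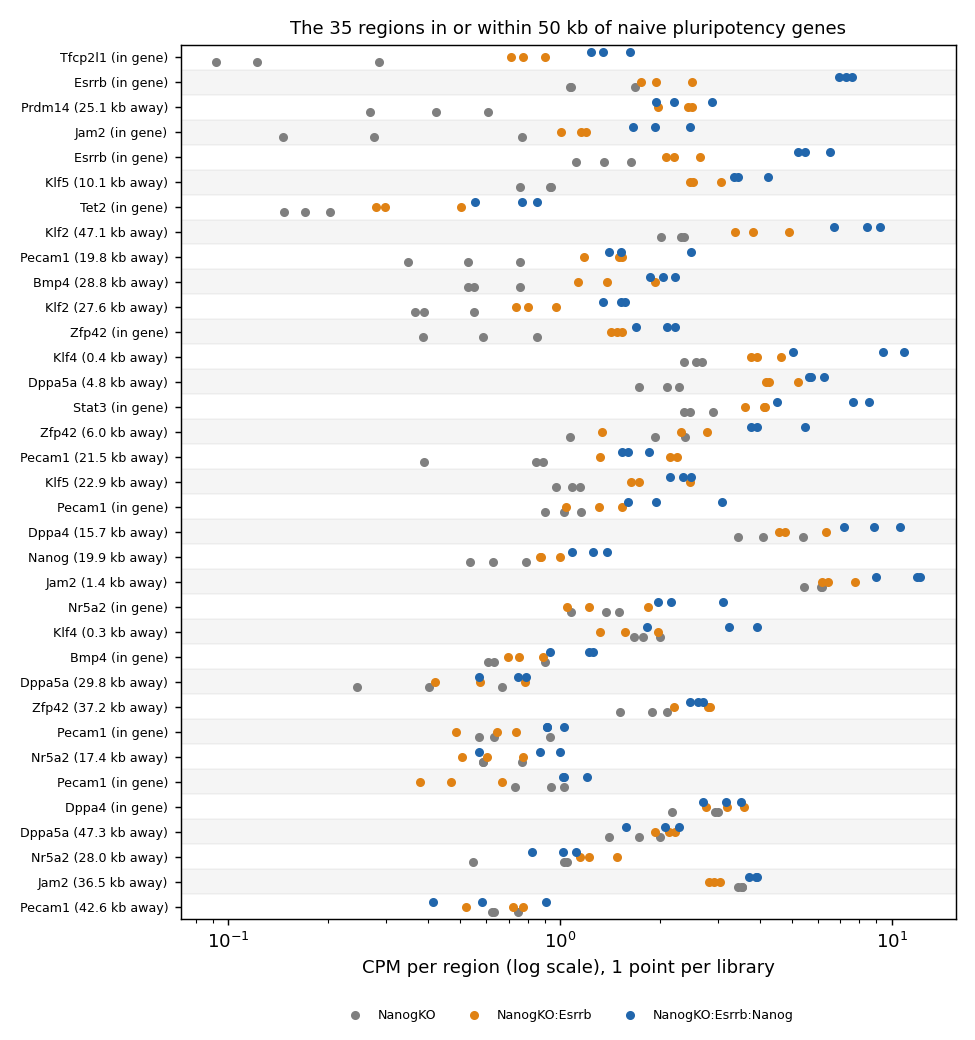
CPM per region on a log axis, 1 point per library, for the 35 third-list-only regions in or within 50 kb of naive pluripotency genes, ordered by the log2 fold change of NanogKO:Esrrb:Nanog over NanogKO. At Tfcp2l1 and Prdm14 the orange points lie far from the grey ones, at Esrrb the blue points lie far from both, and towards the bottom the 3 groups overlap.

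The general pluripotency list held 13 of the regions, by 8 of its 15 genes, which is 3.98% of the regions there, below the 5.79% over all regions. Of the 13, 6 (46.2%) were called higher and none lower in NanogKO:Esrrb:Nanog than in NanogKO (median log2 fold change 0.54), beside 49.9% and 1.6% of all third-list-only regions. A region 78 bp from Dppa2, chr16:48310039-48310196, had 4.1, 3.45 and 5.39, then 6.36, 4.59 and 4.77, then 8.87, 10.6 and 7.19 CPM. Dppa2 and its neighbour Dppa4, in both lists, encode chromatin proteins of early embryos. In Sall4, a zinc-finger gene, the region chr2:168765076-168765231 had 4.88, 4.81 and 4.58, then 5.52, 6.4 and 5.83, then 10.1, 9.98 and 6.36 CPM, and the last value lay within the range of NanogKO:Esrrb. The region 19030 bp from Pou5f1, which encodes OCT4, had means of 2.16 ± 0.17, 2.69 ± 0.42 and 5.1 ± 1.1 CPM (SD, n = 3) in the same order. A region 1993 bp from Sox2 had means of 5.41 ± 0.71, 4.94 ± 0.70 and 6.02 ± 1.1 CPM, within each other's spread.

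LIF pathway and ERK feedback genes had regions with a step from NanogKO to NanogKO:Esrrb, between the Esrrb groups, at both or at neither. The LIF and STAT3 list had 25 regions by 13 of its 15 genes. They made up 6.35% of the regions there, beside 5.79% over all regions. Of the 25, 18 (72%) were called higher and none lower in NanogKO:Esrrb:Nanog than in NanogKO, with a median of 1.29 on the log2 scale. These shares stand beside 49.9% and 1.6% of all third-list-only regions, and 24.9% and 24.4% of all tested regions. Against NanogKO:Esrrb 8 (32%) were called higher, beside 23.5% of all third-list-only regions, and from NanogKO to NanogKO:Esrrb 14 (56%), beside 24.4%. Lifr, the gene of the LIF receptor, had 5 of them, with log2 fold changes of 1.08 to 2.87. The one with the highest CPM in NanogKO:Esrrb:Nanog, chr15:7145206-7145330 within the gene, had means of 0.479 ± 0.056, 0.841 ± 0.12 and 2.37 ± 0.88 CPM (SD, n = 3). Il6st, which encodes the co-receptor gp130, had 1 region, with means of 0.255 ± 0.010, 0.497 ± 0.18 and 0.891 ± 0.35 CPM, and was not called higher over NanogKO:Esrrb. A region within Ccnd3, chr17:47594802-47594928, differed by 0.93 ± 0.18 on the log2 scale between the Esrrb groups. From NanogKO to NanogKO:Esrrb it differed by 0.05 ± 0.18. Klf4, Klf5, Stat3 and Tfcp2l1 are in this list as well as in the naive one, so the lists share regions.

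The ERK feedback list, of genes that respond to or dampen fibroblast growth factor signalling, had 27 regions by 11 of its 15 genes. Of these, 16 (59.3%) were called higher and none lower in NanogKO:Esrrb:Nanog than in NanogKO (median 0.77), beside 49.9% and 1.6% of all third-list-only regions, and 6 (22.2%) were called higher over NanogKO:Esrrb, beside 23.5%. The 27 were 8.36% of the regions near the list's genes, beside 5.79% over all regions. The region 22316 bp from Myc, chr15:62012677-62012975, had 1.2, 1.19 and 1.56 CPM in NanogKO, 3.28, 2.83 and 3.31 in NanogKO:Esrrb, with 8.63, 8.48 and 11.9 in NanogKO:Esrrb:Nanog. The groups did not overlap, with log2 fold changes of 1.25 from NanogKO to NanogKO:Esrrb and 1.63 on to NanogKO:Esrrb:Nanog. Near Etv4, an ETS factor gene, the stronger region, 10541 bp away, had means of 0.21 ± 0.096, 1.31 ± 0.17 and 1.58 ± 0.18 CPM (SD, n = 3), with a log2 fold change of 0.27 between the Esrrb groups that was not called. In Spry4, an inhibitor of receptor tyrosine kinase signalling, the region chr18:38594125-38594162 had means of 0.545 ± 0.16, 1.04 ± 0.27 and 1.61 ± 0.16 CPM, and its difference between the Esrrb groups was not called. By contrast, the region 6229 bp from Spry4 had means of 2.6 ± 0.78, 2.77 ± 0.51 and 2.42 ± 0.50 CPM, within each other's spread.

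Genes of differentiated lineages had such regions too. The counts that follow are to be read beside the 49.9% of all third-list-only regions, and the 24.9% of all tested regions, that were called higher in NanogKO:Esrrb:Nanog than in NanogKO. The primitive endoderm list had 19, of which 12 (63.2%) were called higher and none lower in NanogKO:Esrrb:Nanog than in NanogKO (median 0.84). Lamc1, another laminin chain gene, had 5 of them, with log2 fold changes of 0.64 to 2.15. Across the 19 the log2 fold change over NanogKO ran from -0.45, near Hnf4a, to 4.04, with 18 above 0. The mesendoderm list had 11, with 6 (54.5%) higher and none lower (median 0.77), among them the Gsc region above and one 47571 bp from T, the brachyury gene, with means of 0.303 ± 0.16, 0.792 ± 0.26 and 1.51 ± 0.21 CPM (SD, n = 3). The other region by T, 107 bp away, had means of 2.91 ± 0.54, 2.2 ± 0.68 and 2.94 ± 0.56 CPM, within each other's spread. Across the 11 the log2 fold change over NanogKO ran from -0.5, near Nodal, to 3.85, with 10 above 0. In the trophoblast list, with 12 regions, 6 (50%) higher and none lower (median 0.56), the region 40669 bp from Gata2 had 0.854, 0.569 and 0.426, then 1.41, 3.06 and 1.51, then 6.1, 7.83 and 6.61 CPM. GATA2 is a zinc-finger factor of trophoblast and blood. Of the other lists, formative and primed pluripotency had 14 regions (8 or 57.1% higher, 1 lower, median 0.68) and endothelium and blood 15 (7 or 46.7% higher, none lower, median 0.65). The WNT target list had 16 (6 or 37.5% higher, median 0.37), the neural list 10 (4 or 40% higher, median 0.38), the germline and early cleavage list 8 (3 or 37.5% higher, median 0.45), and the fibroblast list 3 (1 or 33.3% higher, median 0.53), with none lower in these 4. The housekeeping list had 9 (4 or 44.4% higher, none lower, median 0.48). Over all third-list-only regions the median was 0.65, which lists chosen for other lineages straddle.

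Several long genes held clusters of the regions. Msi2, which encodes an RNA-binding protein of stem and progenitor cells, had the most, 14 of its 113 regions, 13 of them within the gene. All 14 were called higher in NanogKO:Esrrb:Nanog than in NanogKO, with log2 fold changes of 1.0 to 2.53 and a median of 1.6. Counts called in this paragraph stand beside 49.9% of all third-list-only regions and 24.9% of all tested regions. The mean CPM of the 14 ran from 0.171 to 2.48 in NanogKO and from 0.587 to 6.82 in NanogKO:Esrrb:Nanog. Kat6b, a histone acetyltransferase gene, had 7 of 43 regions, all called higher, with a median of 1.83 (range 1.19 to 2.37). Most of that difference lay between the Esrrb groups, at a median of 1.41 over NanogKO:Esrrb and 0.29 from NanogKO to NanogKO:Esrrb. Jmjd1c, a gene of the JmjC histone demethylase family, had 9 of 36 regions, 6 of them called higher, with log2 fold changes of -0.19 to 1.88. In contrast, Utrn had 7 of 52 regions, 2 of them called higher, with log2 fold changes of -0.14 to 1.02 and a median of 0.32. Altogether 5349 genes were nearest to at least 1 third-list-only region within 50 kb, 3757 of them to exactly 1 and 84 to 5 or more.

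From NanogKO to NanogKO:Esrrb the regions with the smallest p by direction were taken as examples, without a test, since NanogKO:Esrrb replicate 3 supplied the peaks. In Adprh, an ADP-ribosylarginine hydrolase gene, the region chr16:38446324-38446433 had 0.439, 0.533 and 0.75 CPM in NanogKO, 7.57, 3.65 and 5.48 in NanogKO:Esrrb, with 3.92, 4.58 and 3.98 in NanogKO:Esrrb:Nanog. The last 2 groups overlapped, and both stood apart from NanogKO. The region 13060 bp from Sqle, which encodes squalene epoxidase of sterol synthesis, had 1.2, 0.808 and 1.24, then 4.43, 5.73 and 4.16, then 7.57, 8.04 and 8.75 CPM. In the other examples, nearest to LOC108167368, Map4k3, Ttc39b and Srrm1, the log2 fold change from NanogKO to NanogKO:Esrrb was 2.12 to 2.90.

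The opposite order also occurred. In Gpc3, a glypican gene on chromosome X, the region chrX:52577670-52577754 had 2.0, 2.0 and 2.47 CPM in NanogKO, 0.537, 0.419 and 1.03 in NanogKO:Esrrb, with 1.22, 0.851 and 0.899 in NanogKO:Esrrb:Nanog. NanogKO was highest there although the region was not in the NanogKO peak list. Near Chka, the choline kinase alpha gene, NanogKO:Esrrb was lowest with 1.93, 1.96 and 2.09 CPM, beside 4.07, 5.82 and 5.31 in NanogKO and 3.15, 3.96 and 3.82 in NanogKO:Esrrb:Nanog. Other regions with the highest NanogKO values were nearest to Eif2s3x and Foxr2, also on chromosome X, and to Colec12 on chromosome 18. Chromosome X as a whole took 1.72% of all counts in NanogKO, 1.6% in NanogKO:Esrrb and 1.59% in NanogKO:Esrrb:Nanog. With NanogKO:Esrrb:Nanog lowest, the region 14033 bp from Zbtb41 had 2.15, 2.83 and 2.84, then 2.29, 2.11 and 2.31, then 1.12, 1.29 and 1.42 CPM. The regions nearest to Cops8, Zc3h12a, Got2 and Pfkfb3 also had their lowest mean in NanogKO:Esrrb:Nanog, with log2 fold changes over NanogKO of -1.27 to -0.96.

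Libraries of a group differed in the third-list-only regions. NanogKO:Esrrb:Nanog replicate 3 was the lowest of its group in 4206 of the 9112 regions (46.2%), beside 31.2% of all regions, and replicate 2 the highest in 4677 (51.3%), beside 30.7%. Replicate 1 was the lowest of NanogKO in 43.7% of the 9112, beside 34.6% of all regions, and the lowest of NanogKO:Esrrb in 44.4%, beside 31.5%. The total count of NanogKO:Esrrb:Nanog replicate 3 was the highest of its group, at 58520948, beside 52468157 in replicate 1 and 35545030 in replicate 2, and the part of depth in these gaps was not tested. The gap of that library to the mean of replicates 1 and 2 had a median of -0.12 on the log2 scale (-0.81 to 0.53 for the central 90%), beside 0.05 over all regions. Among the 1281 third-list-only regions within 500 bp of a region in all 3 lists it was the lowest in 786 (61.4%), with a median gap of -0.28, and among the 1359 regions over 20 kb from one in 491 (36.1%), with a gap of -0.02. Replicate 2 was the highest in 57.8% and 41.9% of the same 2 sets. In the same order, replicate 1 of NanogKO was the lowest in 33.4% and 45% and replicate 1 of NanogKO:Esrrb in 42.2% and 41.9%. Within 1 kb of a gene start, where 879 of the regions lay, the median gap was -0.24. In Prrc2a the region chr17:35164852-35164899 had 4.75, 4.96 and 1.28 CPM in NanogKO:Esrrb:Nanog, beside 2.39, 1.8 and 1.38 in NanogKO and 2.5, 1.19 and 2.04 in NanogKO:Esrrb. At Gnao1, a G protein subunit gene, the NanogKO:Esrrb:Nanog values were 5.25, 5.11 and 1.76, and at Dvl1, a WNT signalling gene, 3.23, 2.49 and 0.899. In Dvl1 the third value lay below all other libraries. In each of these 3 regions a region of all 3 lists lay 73 to 94 bp away, and 85 bp away from a region in Jazf1 with 2.72, 2.76 and 0.795 CPM. The other region among the 5 with the largest gaps, in Nsmaf, had 1.31, 1.53 and 0.415 CPM and lay 10288 bp from the nearest such region. The part of that library in the results was examined by leaving it out: the median log2 fold change over NanogKO was then 0.71 and over NanogKO:Esrrb 0.44.

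The regions lay mostly away from gene starts. Within 1 kb of a start lay 9.65%, against 15.9% of all regions and 22.0% of regions in all 3 lists. Every other class of regions absent from a list also had a low share, from 7.57% (NanogKO:Esrrb list only) to 9.64%. The low share is therefore not particular to the regions described here. Their median distance to a start was 19616 bp, against 20750 to 26135 bp in those other classes. Inside genes lay 57.2% of the regions described here, against 55.6% of all regions and 59.0% of regions in all 3 lists. A gene lay within 50 kb of 86.0% of them, and the median distance to a region in all 3 lists was 4278 bp, against 5147 bp over all regions. They made up between 5.03% (chromosome 19) and 6.53% (chromosome 5) of the regions of a chromosome. On chromosome X, with 170 of them (5.12%), the median log2 fold change of NanogKO:Esrrb:Nanog over NanogKO was 0.36. Hairpins of Mir138-1 and Mir8094 were the only miRNA hairpins that a third-list-only region overlapped.

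Nearby regions in all 3 lists were not themselves picked by the rule. Within 500 bp they can share fragments with the third-list-only regions, so the calls at that distance are a description and not a separate test. The 1281 regions with such a neighbour within 500 bp had 1265 neighbours, of which 36.4% were higher and 8.7% lower in NanogKO:Esrrb:Nanog than in NanogKO at an adjusted p under 0.05 in edgeR's quasi-likelihood test. Over all 87127 regions in all 3 lists these shares were 24.0% and 19.7%. For neighbours at that distance of regions missing from 1 or 2 lists in another combination they were 30.2% and 18%. That class includes regions with no third-list interval. Those in the NanogKO list only had median levels of 1.49 to 1.6 CPM in NanogKO and 0.581 to 0.709 in NanogKO:Esrrb:Nanog. The shares of the 2 classes of neighbours therefore also reflect how the classes were chosen. Against NanogKO:Esrrb 22.9% of the neighbours were higher and 3.79% lower, beside 14.9% and 8.61% over all regions in all 3 lists. Beyond 20 kb the shares over NanogKO were 20.3% higher and 24.9% lower. Across pairs within 500 bp, the log2 fold changes of region and neighbour over NanogKO had a Pearson r of 0.51 (1281 pairs), which was 0.28, 0.18 and 0.14 in the bins of longer distance. The pairs share libraries, and close ones can share fragments. No test between the classes of neighbours was made.

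**Figure D5:**
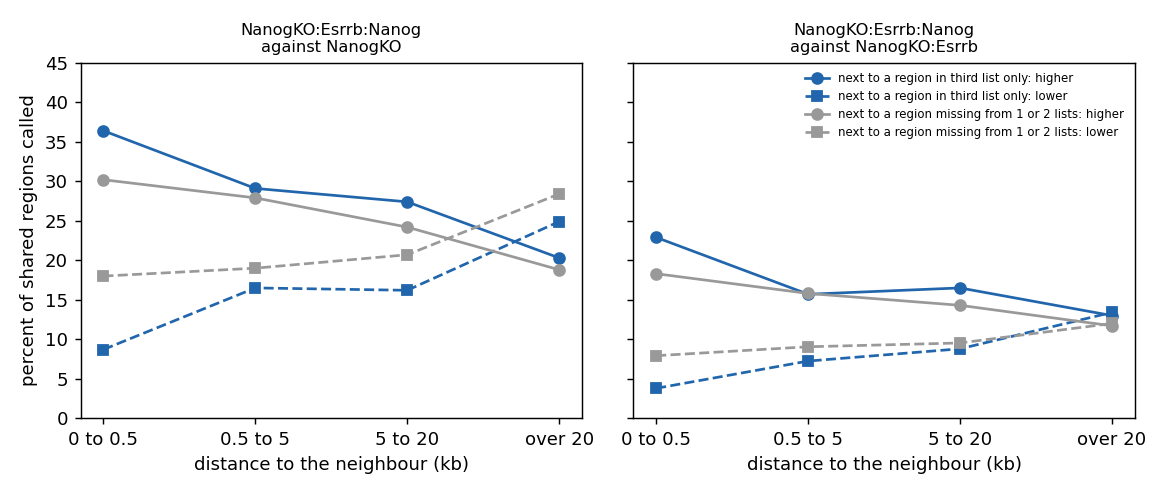
Percentage of regions in all 3 lists called higher (circles, solid) or lower (squares, dashed) in NanogKO:Esrrb:Nanog than in NanogKO (left) or NanogKO:Esrrb (right), by distance in kb to a third-list-only region (blue) or to a region missing from 1 or 2 lists in another combination (grey). At 0 to 0.5 kb in the left panel the blue points are at 36.4% higher and 8.7% lower and the grey at 30.2% and 18%. The grey class includes regions with no third-list interval.

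Single neighbours showed both cases. Beside the Esrrb region at chr12:86463234-86463387, the neighbour 6623 bp away had means of 12.3, 18.3 and 24.4 CPM in NanogKO, NanogKO:Esrrb and NanogKO:Esrrb:Nanog, with a log2 fold change over NanogKO of 0.99 ± 0.12 (edgeR quasi-likelihood, adjusted p = 8.6e-08). It was also higher than in NanogKO:Esrrb, by 0.41 ± 0.12 (edgeR, adjusted p = 0.011). The neighbour of the Gata2 region, 166 bp away, had 1.67, 5.79 and 9.0 CPM and a log2 fold change over NanogKO of 2.42 ± 0.18, given without a test since fragments can be shared at that distance. Near Myc the neighbour 1481 bp away had 11.8, 18.7 and 18.7 CPM. It rose by 0.67 ± 0.13 from NanogKO to NanogKO:Esrrb (edgeR, adjusted p = 0.0002) and its difference between the Esrrb groups was 0.00 ± 0.13 (edgeR, adjusted p = 0.98), while the third-list-only region there differed by 1.63. Near Sqle the neighbour 77 bp away had 9.93, 32.6 and 29.3 CPM, also given without a test, since the Sqle region was chosen by the same comparison. Near Arl14epl the neighbour 4977 bp away had 5.12, 4.21 and 3.91 CPM, a log2 fold change of -0.38 ± 0.16 over NanogKO. It is given without a test, since the Arl14epl region was chosen by a comparison that includes NanogKO. Of the 12 regions with the largest difference, 3 (Rgs22, Lama1 and Mras) had a neighbour called higher in NanogKO:Esrrb:Nanog than in NanogKO. That is 25% and close to the 24.0% of all regions in all 3 lists. The count is a description for the same reason.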

How the data were processed

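ATAC-seq was analysed in 9 libraries, 3 per group; the series text speaks of 12 samples, and the others were not analysed here. The deposited table holds raw read counts per region, unnormalized, and the deposited peak lists hold a score per peak that is the authors' own value, used only to rank peaks. The submitters' processing notes name the build mm10 and, among other tools with no stated role, Bowtie2, MACS2 2.2.0 and bedtools 2.26.0. The read counter, duplicate removal and any transposase shift are not given in the sources used here.

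Counts of all regions were fitted together with edgeR 4.0.16 in R 4.3.3 (TMM, filterByExpr, quasi-likelihood F test, 6 residual degrees of freedom), and p was adjusted by Benjamini-Hochberg over 157439 regions. One of the 9112 regions missed the filter. CPM values are TMM-scaled, fold changes are log2 with standard errors. The fit was also run on simulated counts. Those had the same dispersion in every region and no effect shared by replicate number, so that run does not gauge the calls made here. The members, gene lists and rules were chosen with earlier results of these data known. The design had planned to test single members between NanogKO and NanogKO:Esrrb, and the peak names showed that NanogKO:Esrrb replicate 3 had entered the choice, so those values are descriptions. The labels do not say that replicates came from separate cultures, so a p-value covers the scatter of libraries that may be technical repeats.

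Named regions followed a rule: the 12 largest gains at or above the median level, the 6 smallest p in each direction between NanogKO:Esrrb and NanogKO, the 2 strongest per list, all within 10 kb of Esrrb or Nanog, 3 on each side of the score threshold, the 5 lowest, and the 5 with the largest gap of NanogKO:Esrrb:Nanog replicate 3 from its group. A region that this rule names is not reported here. Other list regions, the genes with most regions and the printed sequences were chosen after their values were seen. Genes are protein-coding RefSeq genes (GRCm38.p6), in or within 50 kb, and in a gene does not tell exons from introns. As a check of pairing, deviations from the group mean were correlated between libraries of the same number. The r was 0.117 to 0.152 for NanogKO with NanogKO:Esrrb and 0.105 to 0.146 for the 2 Esrrb groups, over the limit of 0.1 set for pairing, and 0.002 to 0.136 for NanogKO with NanogKO:Esrrb:Nanog, not over it. No label names what a replicate number shares.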

Additional observations from a re-analysis of the deposited data

How the results depend on the processing

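Over the alternatives tried, 156 of 179 summary values stayed within 1.5 times the count or within the spread of the libraries, 23 moved, and none reversed. Of 3015 values of the 67 named regions, 2862 kept their side of the threshold, 119 lost it, 34 gained it and none that was called reversed.

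With only members at or above the median score, fewer regions by construction, 1991 were higher in NanogKO:Esrrb:Nanog than in NanogKO (median 0.47), 908 higher than in NanogKO:Esrrb (median 0.28), while from NanogKO to NanogKO:Esrrb 1051 were higher and 130 lower. With library totals only, the median of all regions shifted by -0.1 in both comparisons with NanogKO:Esrrb:Nanog, 34 members were lower than in NanogKO:Esrrb and the member median there was 0.28, still 0.39 above that of all regions. The share of higher calls among all called regions then went from 50.5% to 42.2% over NanogKO and from 51.1% to 33.5% over NanogKO:Esrrb, and among members from 96.9% to 95% and from 99.2% to 97.7%. With the replicate block, 27 members were lower in NanogKO:Esrrb:Nanog than in NanogKO:Esrrb, and no other summary count moved by over 1.5 times. A gene lay within 10 kb of 70.9% and within 100 kb of 91.5% of members.

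Without 1 replicate at a time, members higher and lower in NanogKO:Esrrb:Nanog than in NanogKO numbered 3884 to 4718 and 90 to 149, than in NanogKO:Esrrb 1269 to 2529 and 8 to 27, and from NanogKO to NanogKO:Esrrb 1641 to 2408 and 133 to 328. The medians were 0.57 to 0.71, 0.32 to 0.44 and 0.23 to 0.31. Lower calls over NanogKO were 96 and 90 without NanogKO replicates 2 and 3. Lower calls over NanogKO:Esrrb were 8 without NanogKO:Esrrb replicate 1 or 3 or NanogKO:Esrrb:Nanog replicate 1, and 27 without NanogKO:Esrrb:Nanog replicate 3. From NanogKO to NanogKO:Esrrb lower calls were 137, 133, 139 and 146 without NanogKO:Esrrb replicates 1 and 2 and NanogKO replicates 2 and 3. The causes of these moves were not tested. The windows of 200 and 300 bases planned for sequences were not run, since no genome was used here. Alternatives without members whose named peak is in the NanogKO:Esrrb list, and with members of 50 bp or more, were chosen after seeing the data. With a median of 31 to 74 counts per region, depth limits single regions.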
